A study of Homo sapiens with 34 samples.

Results

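The 10 genes described here were the immediate early genes *FOS*, *FOSL1*, *FOSL2*, *JUN*, *JUNB*, *JUND*, *EGR1*, *IER2*, *IER3*, and *MYC*, found by their symbols among the 28690 loci of a gene table from U2OS cells. They matched 15 rows of the table. *IER3* took 6 of these rows, of which 5 lay on alternate versions of its chromosome and were listed at 0 in every library, and each other gene had a single row. All 10 genes were among the 13979 loci counted as expressed, with a mean over all libraries of at least 1 FPKM (fragments scaled by transcript length and by library size). The cells were *Bmal1*:*luc* U2OS, a line from a human osteosarcoma with luciferase under the *Bmal1* promoter, and had been synchronized with dexamethasone, a glucocorticoid that aligns the clocks of the cells. The cells were then kept in 5 mM 6AN (6-aminonicotinamide), an inhibitor of the pentose phosphate pathway, or in the DMSO vehicle as control. RNA was taken every 4 hr at 12 time points labelled 0 to 44 hr, with 1 library per time point and condition. How long 6AN had been present at the label of 0 hr is not given in the labels. The study's methods give triplicate RNA extracts without saying if these were pooled for each library. ChIP-seq was made after 24 hr in both conditions for BMAL1, CLOCK, H3K4me3, H3K9ac, and input, again with 1 library each.

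Immediate early genes are transcribed within minutes of a stimulus without the need for new protein, mostly through kinases of the ERK and JNK pathways and through serum response factor, which binds CArG boxes with the ELK cofactors. FOS and JUN family proteins pair through their leucine zippers into the transcription factor AP-1, which binds TGANTCA and related sites. EGR1 is a zinc finger factor, and MYC pairs with MAX and binds CACGTG, an E-box hexamer that BMAL1 and CLOCK also bind. In bone tumors, FOS and MYC are well known for their oncogenic activity. IER2 and IER3 are small, rapidly induced proteins. IER3 takes part in the control of survival and of ERK signaling.

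Promoter sequences from RefSeq (GRCh38.p14, 250 bases before to 50 after the start) were at hand for 7 of the 10 genes, *JUN*, *JUNB*, *JUND*, *FOS*, *FOSL2*, *EGR1*, and *IER2*. They were searched on both strands for the E-box CACGTG, the AP-1 site TGANTCA, the cyclic AMP response element TGACGTCA, and the CArG box. None of the 7 windows held CACGTG, which was present in 7.26% of all 35116 promoter windows. Matches to the other motifs are shown here because they fall in genes whose levels differed most between conditions or whose promoters carried a BMAL1 interval. *EGR1* held a pair of CArG boxes, which begin at positions -105 and -83 from the start and are printed in capitals. A CArG box was found in 1.29% of all windows. *FOSL2* held an AP-1 site that begins 5 bases after the start, in capitals, and 7.71% of windows held such a site. *JUND* held a cyclic AMP response element at position -200, in capitals, against 1.85% of windows. The lines give the *EGR1* stretch (chr5:138465229-138465478, plus strand), the *FOSL2* stretch up to 20 bases past the start (chr2:28392608-28392877, plus strand), and the *JUND* stretch (chr19:18281623-18281872, minus strand).
EGR1: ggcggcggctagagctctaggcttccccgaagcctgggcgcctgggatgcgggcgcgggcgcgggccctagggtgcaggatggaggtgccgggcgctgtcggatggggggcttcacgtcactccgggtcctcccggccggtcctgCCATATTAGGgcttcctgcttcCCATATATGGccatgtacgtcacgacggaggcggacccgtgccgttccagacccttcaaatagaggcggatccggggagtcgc
FOSL2: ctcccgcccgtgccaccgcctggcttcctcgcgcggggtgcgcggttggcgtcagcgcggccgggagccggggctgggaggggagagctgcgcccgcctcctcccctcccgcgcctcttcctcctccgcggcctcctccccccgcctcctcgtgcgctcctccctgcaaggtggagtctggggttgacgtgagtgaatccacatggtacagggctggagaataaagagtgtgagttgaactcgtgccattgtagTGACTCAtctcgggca
JUND: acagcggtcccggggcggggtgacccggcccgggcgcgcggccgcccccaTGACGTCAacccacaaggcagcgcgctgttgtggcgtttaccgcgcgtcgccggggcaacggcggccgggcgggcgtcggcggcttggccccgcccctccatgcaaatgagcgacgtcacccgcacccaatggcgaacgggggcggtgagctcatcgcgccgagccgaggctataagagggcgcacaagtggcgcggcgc

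Between the conditions, *MYC* and *EGR1* were higher and *FOSL2* was lower in 6AN at all 12 time points, with no overlap between the 12 values of each condition. The ranges of the other 7 genes overlapped. Among all expressed loci, 5.89% had a 6AN range wholly above and 10.3% a 6AN range wholly below that of control, 16.2% in all, against 3 of the 10 genes. When all 24 libraries were put on one scale by the median ratio, these shares were 7.98% and 8.28%, and the same 3 genes stood apart. The FPKM of each condition had been normalized in its own table, so levels between conditions are described with no test. In bulk RNA, fewer cells expressing a gene and less RNA per cell cannot be told apart.

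*MYC*, the growth-promoting bHLH factor (chr8:127736069-127741434, hg38), ranged from 33.5 to 60.4 FPKM in control with a median of 45.2. In 6AN, it ranged from 88.8 to 124.4 FPKM with a median of 96.7. The lowest 6AN library was thus above the highest control library, which was the one at 44 hr. The mean over time was 2.21 times that of control, and the difference of log2(FPKM + 1) was 1.14 ± 0.16 (SD over 12 time points). It was the largest difference among the 10 genes.

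*EGR1*, a zinc finger activator (chr5:138465492-138469315), had 41.1 to 69.0 FPKM in control, with a median of 55.9, and 78.5 to 94.4 FPKM in 6AN, with a median of 86.0. The conditions did not overlap. The log2 difference was 0.64 ± 0.25 (SD, n = 12), and the ratio of the means was 1.55. *EGR1* varied less over time in 6AN, with a coefficient of variation (CV) of 5.3% against 15.5% in control. The counting error expected from its reads was 2.51% in 6AN and 3.13% in control.

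*FOSL2*, which encodes the AP-1 subunit FRA2, lies at chr2:28384409-28414649 and ranged from 43.7 to 65.1 FPKM in control with a median of 49.7. In 6AN, it ranged from 30.3 to 37.6 FPKM with a median of 32.2. Each 6AN library was below the lowest control library, and 20.4% of expressed loci were lower at all 12 time points. The log2 difference was -0.61 ± 0.14 (SD, n = 12), or a control mean 1.55 times that of 6AN.

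**Figure D1:**
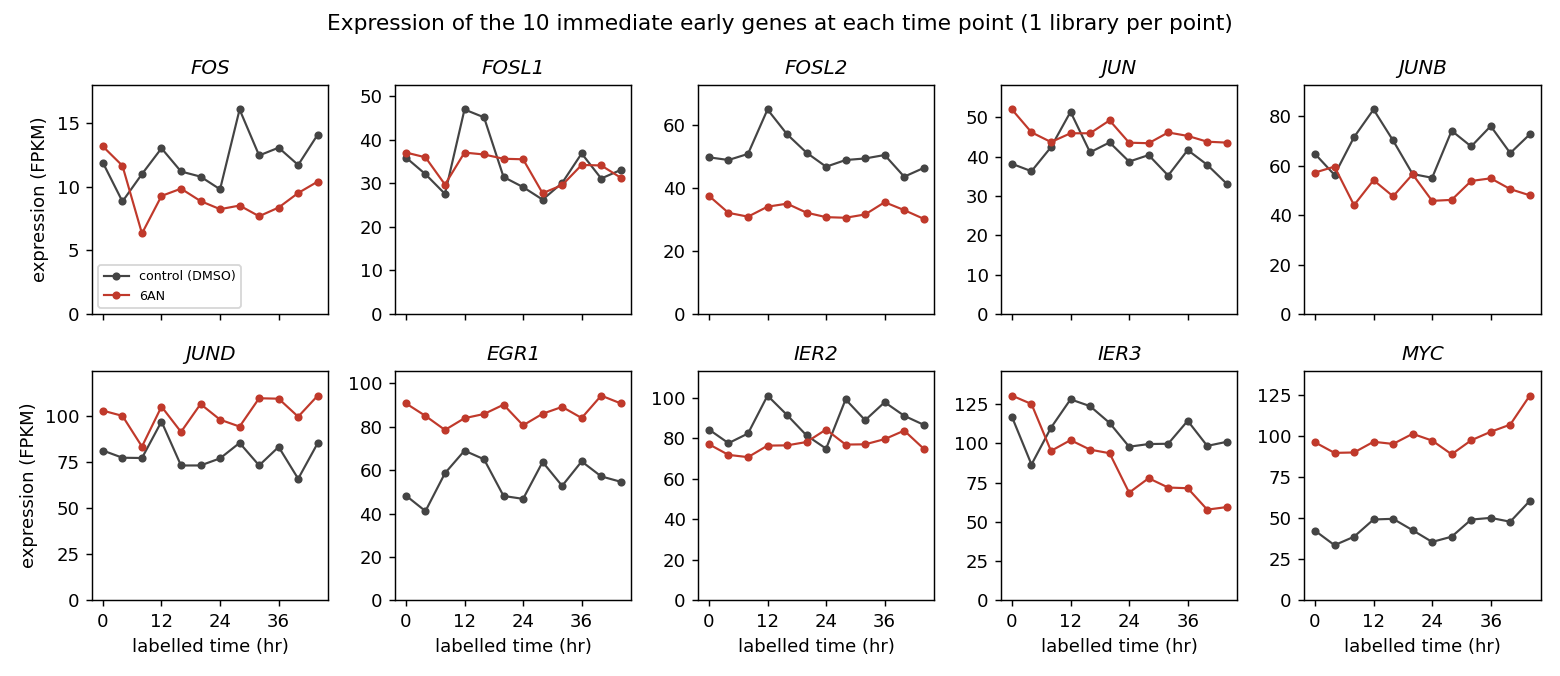
Expression of the 10 genes in FPKM (vertical axes, from 0) against the labelled time in hr, with black points for control and red points for 6AN, 1 library each. *MYC* and *EGR1* in 6AN lie above every control library, *FOSL2* in 6AN lies below, and *IER3* in 6AN goes from 130.4 FPKM at 0 hr to 59.4 FPKM at 44 hr.

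The other Fos family genes had overlapping ranges. *FOS*, the founding partner of JUN, was the least expressed of the 10 genes in both conditions, with 8.83 to 16.04 FPKM in control (median 11.8) and 6.32 to 13.1 FPKM in 6AN (median 9.06). *FOS* was lower in 6AN at 10 of 12 time points, with a log2 difference of -0.34 ± 0.35 (SD), which is no larger than its spread over time. *FOS* also had the fewest reads, 71 to 251 per control library and 58 to 214 per 6AN library. *FOSL1*, which encodes FRA1, had 26.2 to 46.9 FPKM in control (median 31.8) and 27.7 to 37.0 FPKM in 6AN (median 34.8). Its log2 difference was 0.01 ± 0.19, with 7 time points higher and 5 lower.

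In the Jun family, the 3 genes did not share a direction. *JUN*, the strongest activator of the family, had 33.1 to 51.4 FPKM in control (median 39.6) and 43.4 to 52.0 FPKM in 6AN (median 45.6). It was higher in 6AN at 11 of 12 time points, by 0.19 ± 0.17 on the log2 scale. *JUNB*, which often opposes JUN, had 55.1 to 82.7 FPKM in control (median 68.9) and 44.003 to 59.6 FPKM in 6AN (median 52.1). It was lower at 11 of 12 time points, by a log2 difference of -0.38 ± 0.26. *JUND*, the member least dependent on stimulation, had 66.1 to 97.2 FPKM in control (median 77.4) and 83.6 to 111.3 FPKM in 6AN (median 101.7). It was higher at all 12 time points, as were 13% of expressed loci, with a log2 difference of 0.35 ± 0.17.

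*IER2*, a nuclear regulator, had 75.0 to 101.2 FPKM in control (median 87.9) and 70.8 to 84.4 FPKM in 6AN (median 77.0). Its log2 difference was -0.18 ± 0.15, with 11 of 12 time points lower. *IER3* (chr6:30743199-30744550) had 86.5 to 128.1 FPKM in control (median 105.5) and 57.8 to 130.4 FPKM in 6AN (median 85.8). The log2 difference of *IER3* was -0.33 ± 0.37, with the widest spread over time of the 10 genes. The median difference was -0.09 over the 10 genes and -0.04 over all expressed loci. In the 10 genes as a group, there was thus no shared direction.

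**Figure D2:**
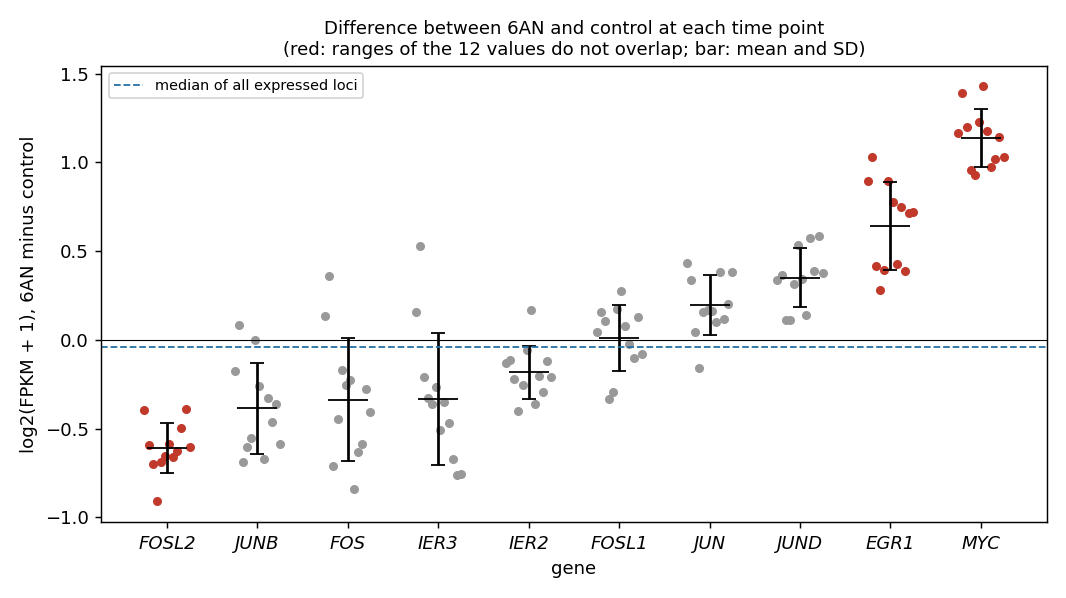
Difference of log2(FPKM + 1) between 6AN and control at each of the 12 time points (points, from left to right in time order), with the mean and SD as black bars. The points of *MYC* (mean 1.14), *EGR1* (0.64), and *FOSL2* (-0.61) are red because the ranges of the conditions do not overlap, and the dashed line is the median of all expressed loci (-0.04).

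The order of the genes by mean level, which FPKM allows because it is scaled by transcript length, differed between conditions. In control, the order from the highest was *IER3* (107.4 ± 12.2 FPKM, SD over 12 time points), *IER2* (88.2 ± 8.5), *JUND* (79.2 ± 8.0), *JUNB* (67.7 ± 8.6), *EGR1* (55.8 ± 8.7), *FOSL2* (50.8 ± 5.5), *MYC* (44.7 ± 7.6), *JUN* (40.01 ± 4.7), *FOSL1* (33.8 ± 6.5), and *FOS* (11.98 ± 1.9). All neighbors in this order had overlapping ranges except *FOSL1* and *FOS*. In 6AN, *JUND* (101.1 ± 8.3 FPKM) and *MYC* (98.7 ± 9.7 FPKM) came first, followed by *IER3* (87.4 ± 23.9), *EGR1* (86.6 ± 4.6), *IER2* (77.3 ± 4.0), *JUNB* (51.5 ± 5.2), *JUN* (45.7 ± 2.6), *FOSL1* (33.7 ± 3.3), *FOSL2* (32.9 ± 2.3), and *FOS* (9.3 ± 1.8). The ranges of *IER2* and *JUNB*, of *JUN* and *FOSL1*, and of *FOSL2* and *FOS* did not overlap. The others overlapped with their neighbor. *MYC* was thus number 7 of 10 in control and number 2 in 6AN.

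Over the time course, the *IER3* level fell in 6AN, and it was the single gene of the 10 with a trend that passed the test. Its 6AN values were 130.4, 125.1, 95.2, 102.1, 96.0, and 93.7 FPKM from 0 to 20 hr, and 68.6, 77.8, 71.8, 71.4, 57.8, and 59.4 FPKM from 24 to 44 hr. The 6 later libraries were all below the 6 earlier ones, a pattern seen in 5.11% of expressed loci in 6AN, and the mean of the first 6 was 1.58 times that of the last 6. In control, the first 6 values of *IER3* spanned 86.5 to 128.1 FPKM and the last 6 spanned 97.9 to 114.4 FPKM, with overlap. At 0 hr, *IER3* was higher in 6AN (130.4 FPKM) than in control (116.9 FPKM), while at 44 hr it was lower (59.4 against 100.997 FPKM).

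The trend was estimated with limma as the slope of log2(FPKM + 1) per 24 hr in a fit with a 24 hr cosine and sine, separately in each table, with Benjamini-Hochberg adjustment over the 13979 expressed loci. For *IER3* in 6AN, the slope was -0.62 (SE 0.071, limma adjusted p = 0.00058), where 13.1% of expressed loci fell and 10.8% rose. In control, the slope of *IER3* was -0.15 (SE 0.066, limma adjusted p = 0.25). The difference of the slopes, tested as an interaction in which a constant factor between the tables cancels, was -0.47 (SE 0.10, limma adjusted p = 0.0066), and 7.8% of expressed loci passed in either direction. Centering each library on its median changed the split of these loci from 445 higher and 645 lower to 704 higher and 557 lower, and gave a difference of -0.44 for *IER3*. Of the osteoblast-related markers checked in the same libraries, *COL1A1* and *SPARC* also fell in 6AN (slopes -1.26 and -0.53). Their slopes differed between conditions by -0.67 and -0.46 (limma adjusted p = 0.0016 and 0.0028). *COL1A1* fell in control too (-0.58, limma adjusted p = 0.0039). By contrast, *RUNX2* rose in 6AN (0.23, limma adjusted p = 0.011), and *ALPL* had no trend that passed (-0.02, limma adjusted p = 0.93). The slopes of *RUNX2* and *ALPL* did not differ between conditions past the threshold (limma adjusted p = 0.89 and 0.90). The part of these markers in the *IER3* result was not tested. These p-values measure the scatter of single libraries around a smooth time course, not the variation between experiments, and neighboring time points are not independent.

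The other 9 genes had no trend past the adjusted threshold in either condition. In control, 0 of the 10 genes passed with limma, against 5.47% of expressed loci, and 3 genes (*FOSL1*, *FOSL2*, and *IER3*) had an unadjusted p below 0.05. In 6AN, 1 of the 10 genes passed, against 23.9% of expressed loci, and *FOSL1* and *MYC* joined *IER3* at the unadjusted level. At that level, 2790 of the 13979 expressed loci had a trend in control and 5160 in 6AN. The slope of *FOSL1* in 6AN was -0.16 (SE 0.054, limma adjusted p = 0.056), and that of *MYC* was 0.12 (SE 0.045, limma adjusted p = 0.084). *MYC* reached its highest value at 44 hr in both conditions, 60.4 FPKM in control and 124.4 FPKM in 6AN. *FOS* had slopes of opposite sign, 0.19 (SE 0.11) in control and -0.14 (SE 0.12) in 6AN, and their difference of -0.34 (SE 0.16) did not pass (limma adjusted p = 0.24). The median slope of the 10 genes was 0.004 in control and -0.08 in 6AN, and that of all expressed loci was 0.001 and 0.

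**Figure D3:**
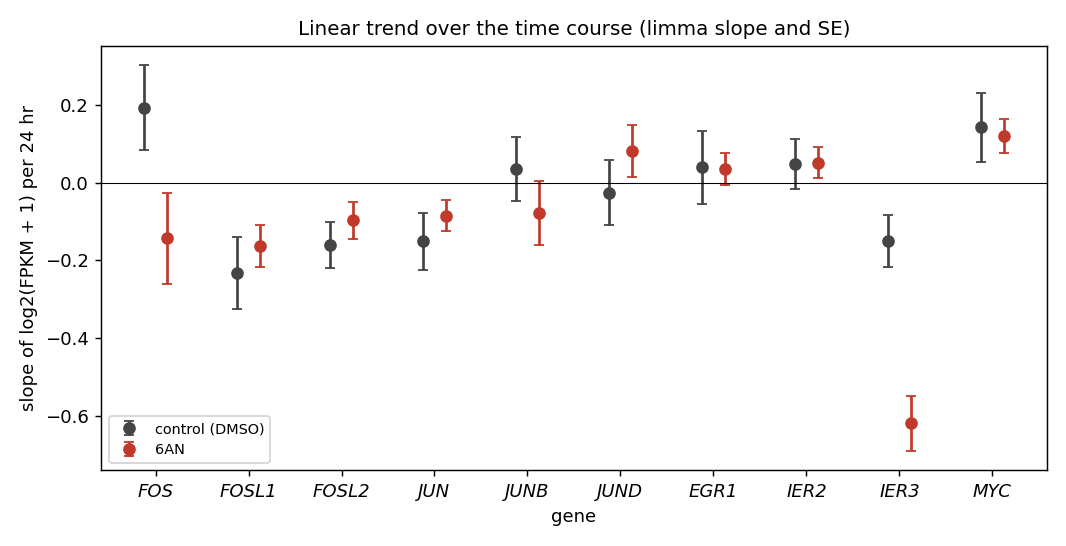
Slope of log2(FPKM + 1) per 24 hr with its SE from limma, for each gene in control (black) and in 6AN (red). *IER3* in 6AN (-0.62) lies apart from its slope in control (-0.15), while the other 9 genes have slopes between -0.23 and 0.19 in both conditions.

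No 24 hr rhythm was called by limma in any of the 10 genes at an adjusted p of 0.05, in control, in 6AN, or in the difference between them. Among all expressed loci, 1 was called in control (0.00715%), 0 in 6AN (0%), and 9 in the difference (0.0644%). Because the fit called so few loci, it cannot show that the 10 genes lack a rhythm. The paper detected circadian transcripts in both conditions, clock genes among them, with the RAIN algorithm, and checked them with a Fisher test and ARSER. None of these was run here. The p threshold of the paper also differed from the adjusted p of 0.05 used here. At an unadjusted p below 0.05, there were 3 genes in control (*FOSL1*, *EGR1*, and *IER3*), 1 in 6AN (*FOSL1*), and 1 in the difference (*EGR1*). Over all expressed loci, the counts at that level were 940, 1103, and 840. *FOSL1* had the largest fitted amplitude in control, 0.29 on the log2 scale with a peak near 15.2 hr (limma adjusted p = 0.69). In 6AN, the amplitude of *FOSL1* was 0.14 with a peak near 17.5 hr (limma adjusted p = 0.58). *EGR1* had an amplitude of 0.21 in control (limma adjusted p = 0.73) and 0.05 in 6AN (limma adjusted p = 0.84).

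Single libraries held the highest or lowest values of several of these genes. At 12 hr in control, 8 of the 10 genes had their highest control value, *FOSL1*, *FOSL2*, *JUN*, *JUNB*, *JUND*, *EGR1*, *IER2*, and *IER3*, whereas 11.9% of expressed loci had theirs there. In that library, *JUNB* had 82.7 FPKM and *EGR1* had 69.0 FPKM. At 8 hr in 6AN, 5 of the 10 genes had their lowest 6AN value, *JUNB*, *JUND*, *FOS*, *EGR1*, and *IER2*, against 10.9% of expressed loci. The relative depth was 1.08 in the former library and 0.70 in the latter, and its part in these values was not tested. Over time, 8 of the 10 genes had a larger CV in control than in 6AN, all except *FOS* and *IER3*, whereas 41% of expressed loci did. The median CV of the 10 genes was 12.2% in control and 8.96% in 6AN, and that of all expressed loci was 11.5% and 12.9%.

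Among the 45 pairs of these genes, Pearson's r of log2(FPKM + 1) over the 12 control libraries ranged from -0.09 to 0.89 with a median of 0.48, and 44 pairs were positive. Over the 12 libraries of 6AN, r ranged from -0.62 to 0.72 with a median of 0.35, and 36 pairs were positive. The highest value in control was that of *JUNB* and *EGR1* (0.89), followed by *EGR1* and *IER2* (0.88). The lowest in 6AN was that of *MYC* and *IER3* (-0.62). The points of each pair share a library and its depth, so these values are a description. Pairs of all expressed loci were not correlated, so these medians and counts of positive pairs have no background. In control, 8 of these genes had their highest value in the library at 12 hr, and its part in r was not tested. With both tables centered on their own means and joined into 24 libraries, the locus most like *EGR1* was *PHYKPL* (r = 0.86), followed by *DUSP2*, which encodes a nuclear phosphatase of ERK (0.78). *FOSL1* was most like *EPHA2*, a receptor tyrosine kinase (0.86), and *CYR61*, a secreted matrix protein (0.85). *FOSL2* was also most like *EPHA2* (0.80), with *SEMA3F* next (0.78). *MYC* was most like *MAFF*, a small MAF factor (0.84), and *OAF* (0.84). *IER3* was most like *ETS1*, a transcription factor downstream of ERK (0.91), and *SYNJ2* (0.90). With *IER3*, 570 loci reached 0.7, against 5 to 39 for the other genes. Trends over time were not removed before these correlations, and *IER3* fell in 6AN, as did 13.1% of expressed loci. *IER2* was most like *EGR1* itself (0.78) and *SH2B2* (0.74). For *JUN*, these were *MARK3* (0.78) and *PTPRN* (0.77), for *JUNB*, *MIDN* and *GPAA1* (0.75 each), for *JUND*, *LAMTOR1* (0.73) and *VPS37D* (0.72), and for *FOS*, *UACA* and *NDUFB6* (0.76 each).

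Shared BMAL1/CLOCK sites, which the authors listed with their nearest gene, fell to a single one of the 10 genes. *IER3* was the nearest gene of 1 of 147 sites in the control list and of 2 of 439 sites in the 6AN list. The share of expressed loci that were the nearest gene of such a site was not taken. The site in both lists lay at -171 bp from the start in the 6AN list (chr6:30744221-30745221, hg38). Its signal is given as tags in 1000 bp scaled to 10000000 tags per library, with exact 95% Poisson intervals that cover counting error only. CLOCK signal was 68.7 (45.6 to 99.2) in control and 158.2 (123.8 to 199.2) in 6AN, a ratio of 2.30 (exact binomial interval 1.47 to 3.71). BMAL1 signal was 60.3 (43.99 to 80.7) in control and 46.2 (32.5 to 63.9) in 6AN, a ratio of 0.77 (0.47 to 1.198). Thus CLOCK counts were higher in 6AN beyond counting error, and BMAL1 counts were not distinguishable between the conditions at this depth. The input signal at this site was 1.51 times that of control (0.72 to 2.81), and with its log2 change subtracted, the log2 change was 0.64 in place of 1.19 for CLOCK, -0.93 in place of -0.38 for BMAL1, and 0.05 in place of 0.61 for H3K9ac.

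The CLOCK change at the *IER3* promoter, 1.19 on the log2 scale, lay close to the median of 1.10 over the 439 sites, and 193 sites had a larger one. For BMAL1, the change was -0.38 against a median of 0.46, and 426 of the 439 sites had a larger one. These 439 sites were those called in 6AN. Over the 147 sites called in control, the median change was 0.86 for CLOCK and 0.22 for BMAL1, with 34 and 135 sites above the *IER3* promoter. H3K4me3, a mark of active promoters, was 185.8 (141.6 to 239.3) in control and 210.0 (170.1 to 256.4) in 6AN. H3K9ac, a mark of active chromatin, was 117.1 (67.6 to 188.7) and 178.7 (142.6 to 221.3). The input was 9.92 (6.83 to 13.9) in control and 15.0 (8.31 to 24.99) in 6AN, so all 4 antibodies were above the input in both conditions. The second site, in the 6AN list alone, lay at -7952 bp from the start in intergenic sequence (chr6:30752002-30753002), with BMAL1 signal of 10.7 in control and 23.4 in 6AN, CLOCK signal of 22.1 and 36.3, and input of 9.62 and 12.4. With 1 library per antibody and condition, these signals compare libraries and have no replicate check.

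**Figure D4:**
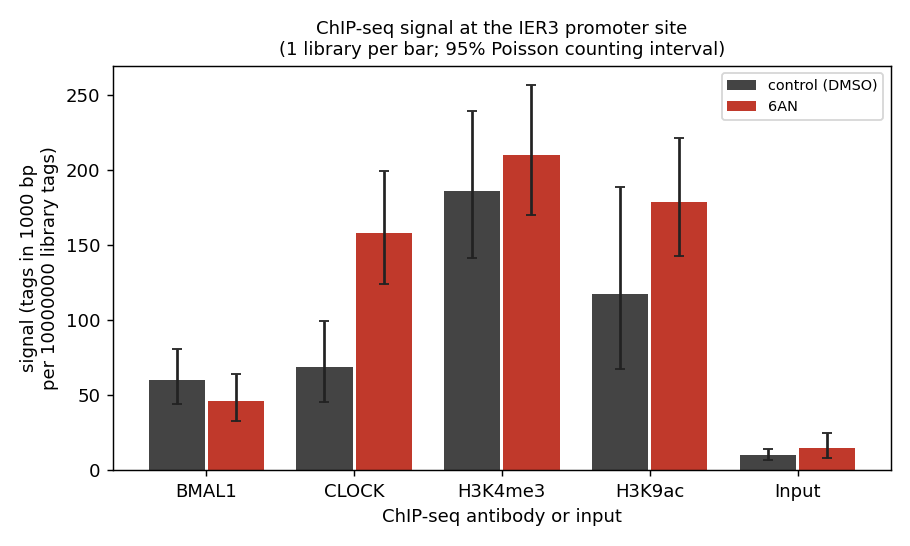
ChIP-seq signal at the *IER3* promoter site in tags per 1000 bp and 10000000 library tags (vertical axis, from 0), for each antibody and for input in control (black) and 6AN (red), 1 library per bar, with 95% Poisson counting intervals. CLOCK goes from 68.7 in control to 158.2 in 6AN, while BMAL1 is 60.3 and 46.2 with overlapping intervals.

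Peaks of BMAL1 or CLOCK called in single libraries were merged by the authors into 4001 intervals, of which 17 lay within 50 kb of the 10 loci. These comprised 6 near *IER3*, 3 near *FOSL1*, 2 near *FOS*, 1 each near *JUN*, *JUNB*, *JUND*, *FOSL2*, *IER2*, and *MYC*, and 0 near *EGR1*. The share of all expressed loci with an interval within 50 kb was not taken. In the BMAL1 libraries, 6 of the 17 were called in control and 10 in 6AN, and in the CLOCK libraries, 2 and 6. As shares of the 17 these are 35.3%, 58.8%, 11.8%, and 35.3%, against 39.4%, 57.8%, 7.22%, and 34.2% of all 4001 intervals. Intervals called in all 4 libraries were found at the *IER3* promoter (chr6:30744604-30744851, peak score 62) and 1329 bp from the *FOSL1* locus (chr11:65890531-65890807, peak score 54.9). The interval at the *FOSL2* promoter (chr2:28392700-28392900, score 20.1) was called in the BMAL1 control library alone and overlaps the stretch printed above. The interval at the *JUND* promoter (chr19:18281465-18281665, score 20.3) was called in the BMAL1 6AN library alone. Of the 7 genes with a RefSeq promoter window, the windows of 4 (*JUN*, *JUNB*, *JUND*, and *FOSL2*) were touched by an interval, against 7.81% of all 35116 windows. No share was taken over the windows of expressed genes alone. Each of these 4 intervals was called in a single library, with scores from 17.6 to 20.9.

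The partners and relatives of the 10 genes were described with lists of genes of known role. Counts in these lists stand against 5.89% of all expressed loci with a 6AN range above control and 10.3% with one below. For trends, 10.8% of expressed loci rose and 13.1% fell in 6AN, and 7.8% differed between conditions. Of 10 expressed AP-1 relatives from 14 listed, 5 had a 6AN range above and 0 a range below control, with a median log2 difference of 0.34. *MAFK*, a small MAF protein, had 26.9 ± 2.8 FPKM in control and 61.6 ± 5.9 in 6AN (SD, n = 12). *ATF3*, a stress-induced factor, had 5.85 ± 0.99 and 13.2 ± 1.9 FPKM. *BATF3* (log2 difference -0.48) and *CREM* (-0.27) were lower at all 12 time points with overlapping ranges. Of the EGR relatives, *EGR2* and the EGR corepressors *NAB1* and *NAB2* were expressed, and none stood apart. *NAB2* was higher at all 12 time points by 0.34 ± 0.14 on the log2 scale. *NAB1* differed by 0.07 ± 0.10 and *EGR2* by -0.09 ± 0.33.

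All 11 listed genes of the MYC network were expressed, and 3 stood apart above and 2 below control, with a median difference of 0.06. *MXD1* and *MXI1*, which compete with MYC for MAX, were higher by 0.85 ± 0.24 and 0.66 ± 0.11 on the log2 scale. *MYCL*, a MYC paralog, had 1.55 FPKM in control and 0.52 in 6AN (log2 difference -0.74 ± 0.26), so it counted as expressed through control alone. The locus of *MXD4*, merged with that of the miRNA gene *MIR4800*, had a difference of -0.53 ± 1.85, with control values from 22.3 to 691.3 FPKM, and was higher in 6AN at 8 of 12 time points. *MAX* itself had 88.1 ± 7.4 FPKM in control and 109.7 ± 15.1 FPKM in 6AN, with overlapping ranges. *MYCN*, chosen after its values were seen, was the single gene of this list whose trend differed between conditions (-0.86 per 24 hr, limma adjusted p = 0.0028). Its level lay near the limit of 1 FPKM, with 1.68 ± 0.45 FPKM in control and 1.07 ± 0.56 FPKM in 6AN (SD over 12 time points). Of 11 expressed MYC targets from 12 listed, 1 stood apart above and 3 below, with a median of -0.04. *NPM1*, a nucleolar chaperone whose reads may be shared with its processed copies, was higher by 0.44 ± 0.20 and *CCND2* by 0.39 ± 0.06, whereas *LDHA*, which makes lactate, was lower (-0.88 ± 0.15). The locus of *NOP56*, merged with the genes of the small RNAs *MIR1292* and *SNORD86*, had -0.77 ± 1.196, with control values from 80.6 to 813.0 FPKM. In 6AN, trends were up in 6 and down in 1 of these targets, and in 2 of them, *NPM1* and *NCL*, the trends differed between conditions (0.27 and 0.26, limma adjusted p = 0.0094 and 0.010).

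Upstream of the 10 genes, 0 of the 11 ERK and JNK pathway kinases stood apart, with a median difference of -0.16. The largest were *BRAF* (0.36 ± 0.30) and *MAP2K2* (0.30 ± 0.06) above and *RPS6KA1* (-0.38 ± 0.28) and *MAPK9* (-0.36 ± 0.20) below. *SRF*, which encodes serum response factor, was higher in 6AN with 36.2 ± 4.3 FPKM against 24.9 ± 2.1 in control, with no overlap. *MKL2*, a cofactor of SRF, was lower (-0.37 ± 0.14) with no overlap, and the other 4 of the 6 genes in that list overlapped, with *ELK4* at 0.22 ± 0.08 and *ELK3* at -0.10 ± 0.12. Of 5 expressed feedback inhibitors of ERK from 9 listed, *DUSP5* (1.02 ± 0.24) and *SPRY2* (0.92 ± 0.32) stood apart above and *PHLDA1* (-1.93 ± 0.75) below. The trends of *SPRY2* (-0.42) and *PHLDA1* (-1.20) differed between conditions (limma adjusted p = 0.018 and 0.00011). *SPRED2* had -0.12 ± 0.15.

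Among other immediate early genes, 16 of 18 listed were expressed, 7 stood apart above and 1 below control, and the median difference was 0.36. *CTGF*, a secreted matrix protein, had 184.1 ± 29.7 FPKM in control and 516.2 ± 56 in 6AN. *DUSP1*, a phosphatase of the MAP kinases, had 20.9 ± 3.33 and 56.6 ± 13.1 FPKM. *IER5L* was lower (-0.74 ± 0.33) with no overlap, and *ZFP36L2* had -0.25 ± 0.15 with overlap. In 6AN, trends were up in 4 and down in 6 of the 16. *BTG2* and *NR4A2*, chosen after their values were seen, were those whose trends differed between conditions (0.43 and -1.04, limma adjusted p = 0.0055 and 0.00065). Of 7 expressed AP-1 targets from 9 listed, 3 stood apart above and 2 below, with a median of 0.64. *MMP1*, interstitial collagenase, which counted as expressed through 6AN alone, had 0.84 ± 0.359 FPKM in control and 7.12 ± 1.23 in 6AN. *HMGA1*, a chromatin architectural protein whose reads may be shared with its processed copies, was higher by 0.78 ± 0.09 with no overlap. *PLAU*, the urokinase plasminogen activator, was lower (-1.75 ± 0.34), as was *CCND1* (-0.70 ± 0.15), both with no overlap. The trends of *MMP1* (-0.57) and *TIMP1* (-0.44), the latter chosen after its values were seen, differed between conditions (limma adjusted p = 0.012 and 0.0034), the former with a control level below the limit of 1 FPKM.

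Over time in 6AN, trends that passed limma's test at an adjusted p of 0.05 went in both directions across the lists. Genes in this paragraph were chosen after their values were seen, because they make up the counts. In the ERK and JNK kinases, 0 rose and 3 fell (*MAP2K2*, *MAPK9*, and *RPS6KA1*), and in the SRF list, 0 rose and 2 fell (*SRF* and *MKL1*). In the feedback inhibitors, *DUSP5* rose and *SPRY2* and *PHLDA1* fell. In the AP-1 relatives, *MAFG* rose and *CREB1* fell, and in the AP-1 targets, *PLAU* and *HMGA1* fell. In the MYC network, *MAX* and *MXI1* rose while *MXD3*, *MLXIP*, and *MYCN* (mean 1.07 FPKM in 6AN) fell. None of the EGR relatives passed. In the MYC targets, 6 rose and 1 fell, and in the other immediate early genes, 4 rose and 6 fell. These counts stand against 10.8% of expressed loci that rose and 13.1% that fell in 6AN. In control, trends in the lists of related genes passed for *MAFG*, *NR4A2*, *CCND2*, *TIMP1*, and *MMP1* (mean below 1 FPKM in control), which rose. Those of *MKL1* and *KLF10* passed and fell.

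**Figure D5:**
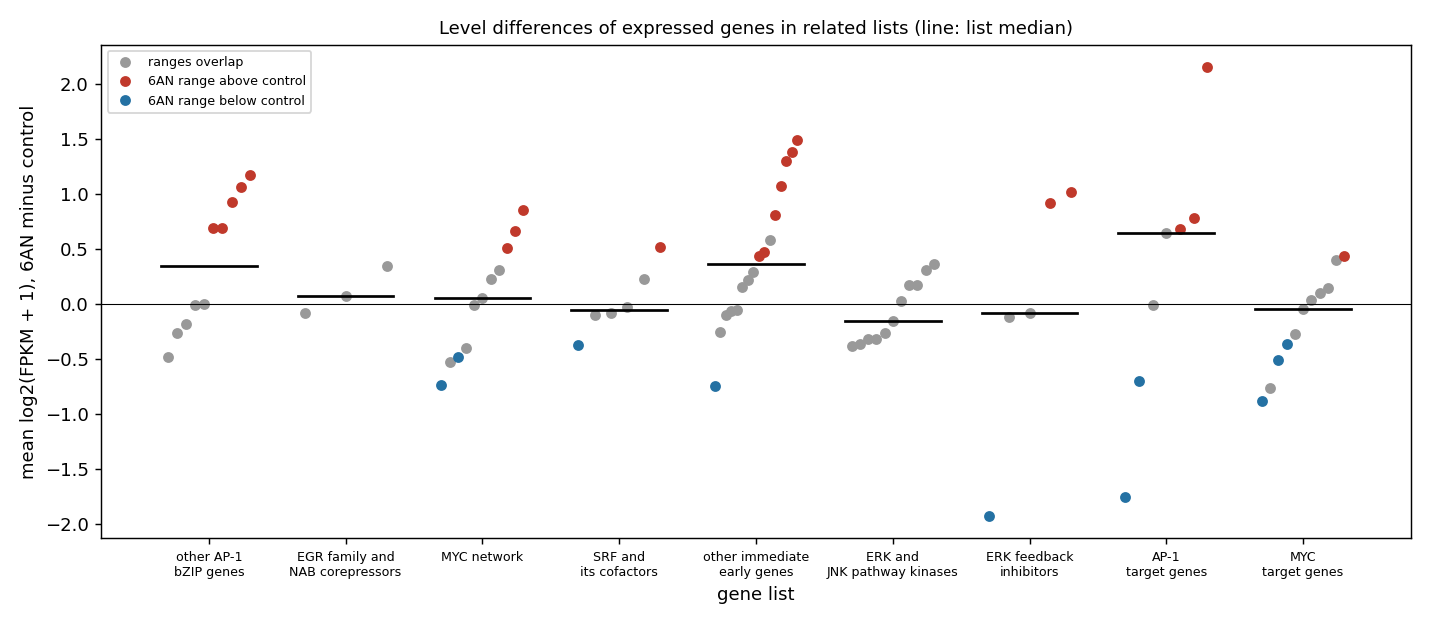
Mean difference of log2(FPKM + 1) between 6AN and control (vertical axis) for each expressed gene of 9 lists, with red and blue points for genes whose 6AN range lies above or below control, gray points for overlapping ranges, and a black line at the list median. The medians range from -0.16 (ERK and JNK pathway kinases) to 0.64 (AP-1 targets), with *MMP1* highest at 2.15 and *PHLDA1* lowest at -1.93.

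The markers of the line were checked in the same libraries. *VIM*, *COL1A1*, *RUNX2*, *SPARC*, *ALPL*, and *CDH2* were expressed, and *COL1A2* was not. Of the markers of epithelial, immune, and liver cells, *EPCAM*, *CDH1*, *PTPRC*, *CD3E*, and *ALB* had mean levels of at most 1.03 FPKM in either condition, while *KRT18* had 253.4 FPKM in control and 124.0 in 6AN. *COL1A1* (-2.02 ± 0.40) and *SPARC* (-1.35 ± 0.29) stood apart below control, as did *KRT18*, and their part in the results was not tested. Relative depth, from the step that 1 read makes in FPKM, spanned 0.61 to 1.38 times a typical library in control and 0.64 to 1.42 in 6AN. For 9 of the 10 genes, all except *FOSL1*, whole reads could be recovered, and the CV over time was above the counting error in each, from 5.23% against 3.36% for *IER2* in 6AN to 27.3% against 4.35% for *IER3* in 6AN.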

How the data were processed

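*Bmal1*:*luc* U2OS cells, an established line, gave 24 RNA-seq libraries (rRNA-depleted RNA, single-end 50 bp reads) and 10 ChIP-seq libraries. Per the labels, the tools were Bowtie, TopHat, Cufflinks, Bowtie2, and HOMER on hg38, with versions not given in the sources used here. The authors deposited FPKM from Cufflinks for each locus, in a table for control and another for 6AN that were normalized apart, and no read counts. The authors also deposited HOMER signal at shared BMAL1/CLOCK sites (tags scaled to 10000000 per library), with the HOMER peak score of merged peaks. All per-sample columns were used.

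Samples were grouped by the agent and time in their labels. The 10 genes, the gene lists, and the tests were chosen with earlier results of these data known. Expressed loci had a mean of at least 1 FPKM, and values were taken as log2(FPKM + 1). Trends and 24 hr rhythms were fitted with limma 3.58.1 (R 4.3.3) on all 13979 expressed loci in each table, with eBayes moderation and Benjamini-Hochberg adjustment at 0.05. Differences between conditions in slope and rhythm were interaction terms over all 24 libraries. Level differences between tables were described only. The fits were tested on simulated data. The whole reads behind FPKM were recovered from the smallest steps between values of low loci and used for counting errors (square root of the reads), which cover counting only. Tags at sites were the signal multiplied by the library total, with exact Poisson intervals. Other values came from SciPy 1.17.1, pandas 2.3.3, and NumPy 2.4.6 under Python 3.11.15, with plots from matplotlib 3.10.9.

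Named genes were the 10 genes, up to 4 genes per list with the largest positive and negative level differences, and the 2 loci most like each gene by Pearson's r. Alternatives covered pseudocounts of 0.1 for FPKM and 5 for signal, no filter, centering of libraries, a period of 28 hr, fits without the rhythm or the trend, windows of 10 and 100 kb, the input as a baseline, early and late time points apart, and leaving out each time point. Median-ratio scaling and the time point as a block were added after seeing the data. Promoters outside the 7 matched to RefSeq, and 1 gene of the AP-1 target list, are not reported here.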

Additional observations from a re-analysis of the deposited data

Results flagged for a closer look

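The time trend of *IER3* differed between the conditions. The slope of log2(FPKM + 1) per 24 hr was -0.62 (SE 0.071) in 6AN and -0.15 (SE 0.066) in control, and the difference of -0.47 (SE 0.10) passed the interaction test of limma (adjusted p = 0.0066). When each time point was left out in turn, the difference ranged from -0.50 to -0.40 with adjusted p from 0.0071 to 0.023. *IER3* had 369 to 1109 reads per control library and 288 to 1126 per 6AN library, so the counting error of 3.75% and 4.35% was small beside the 1.58-fold difference between its first and last 6 values in 6AN.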

How the results depend on the processing

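The level differences of *MYC*, *EGR1*, and *FOSL2* remained apart in the same direction with centered libraries and with median-ratio scaling. They also stayed apart with a pseudocount of 0.1 and in each subset of the time points. Those settings could not have made ranges that do not overlap meet, so they are no check of these 3 genes. With the last 6 time points alone, 7 of the 10 genes stood apart in place of 3, with *JUN* and *JUND* also higher and *JUNB* and *IER3* also lower in 6AN. For that subset, 12.7% and 20.6% of expressed loci stood above and below control. With the first 6 alone, it was 3 genes, with 11.1% and 16.9% of loci. The cause was not tested. The number of genes with a trend in 6AN was 1, against 3346 of the 13979 expressed loci, and 2 with the slope alone, against 3520. With the slope alone, *MYC* joined *IER3* (slope 0.15, limma adjusted p = 0.041). Without 1 time point, the number of genes was 1 to 2. *FOSL1* passed without 8, 24, or 36 hr (limma adjusted p = 0.024, 0.046, and 0.046) and *MYC* without 28 hr (limma adjusted p = 0.044). In control, the number of genes was 0 to 1, with *IER3* passing without 4 hr (limma adjusted p = 0.044). *IER3* passed in 6AN under each alternative run. In the difference, it passed with a pseudocount of 0.1, no filter, centered libraries, and without each time point, and fits with the slope alone, no linear trend, or a period of 28 hr were run for the single conditions only. No rhythm was called in any of the 10 genes under the alternatives run for each fit. Over all expressed loci, the count of trends without 1 time point was 418 to 664 in control (765 with all), 2176 to 3300 in 6AN (3346 with all), and 681 to 1035 in the difference (1090 with all), the lowest without 12, 0, and 28 hr, and of rhythms 0 to 2, 0 to 1, and 4 to 13. Merged intervals numbered 17 within 50 kb, 11 within 10 kb, and 24 within 100 kb. The CLOCK change at the *IER3* promoter was 1.19, 1.15 with a pseudocount of 5, and 0.64 after subtraction of the input change. The labels carry no replicate numbers, but both conditions share their time labels. With the time point as a block, an alternative chosen after seeing the data, the *IER3* slope difference was -0.47 (limma adjusted p = 0.017), and no other call among the 10 genes changed. Depth limits *FOS* most, with a counting error of 8.25% in control and 9.6% in 6AN.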
